A study of Mus musculus with 18 samples.

Results

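The comparison described here is the deposited ES Eed KO RNA-seq library against the ES WT library, both from undifferentiated mouse embryonic stem (ES) cells, over all 29851 transcripts of the expression table. These are 2 of 6 RNA-seq libraries in a series of 18 samples, beside 12 ChIP-seq samples that are not used here. ES WT and ES Eed KO are E36 cells of 129/Ola background kept in 15% serum with leukemia inhibitory factor, wild type or Eed knockout by label. The labels give neither the Eed allele nor how many clones stand behind a library. A further control, E14 shCtrl (below shCtrl), is a different 129/Ola ES line in the same serum medium. It received a control hairpin by lentivirus, was selected with puromycin and was harvested on day 4, and serves to show where the control lines differ and as a second reference for the calls beyond both controls. Embryoid bodies (EBs) of the same wild-type and Eed knockout cells, EB WT and EB Eed KO, were exposed to 0.5 µM all-trans retinoic acid and collected at day 9. Each group is 1 library, so no difference below has a replicate check and no p-value is given.

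Eed is the subunit of Polycomb repressive complex 2 (PRC2) that binds methylated lysine 27 of histone H3 and is needed for the methyltransferase activity of Ezh2 or Ezh1. PRC2 lays down all 3 methylation states of that lysine, and the trimethylated state marks silent promoters, many of them CpG islands of developmental regulators in ES cells. PRC1, with its Ring1, Pcgf, Cbx and Phc subunits, binds that mark or CpG islands directly and monoubiquitinates histone H2A. ES cells without PRC2 can be kept in culture, and homeotic (HOX) genes, other developmental regulators and some imprinted genes are known to depend on it.

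Eed mRNA was examined first as a check of the label. Eed (mm9 chromosome 7, 97103164 to 97129486) had 72.3 FPKM in ES WT, 127 in shCtrl and 77.8 in ES Eed KO. At the transcript level the library labelled ES Eed KO was thus not lower than ES WT, and it was lower than shCtrl within the size rule used below. Differences were 0.10 from ES WT and -0.70 from shCtrl. Every direction below therefore rests on the label of that library. The other core PRC2 genes lay within a factor of 2 of both controls. Ezh2, the main methyltransferase, had 45.9 FPKM in ES WT, 48.2 in shCtrl and 67.1 in ES Eed KO, Suz12 had 82.3, 71.3 and 78.7 in the same order, and Ezh1 had 9.82, 10.6 and 10.8.

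FPKM totals per library ranged from 544166 in ES Eed KO to 598935 in ES WT, and 11982 to 12311 genes reached 1 FPKM. Fragment totals are not in the table, and low-level values gave relative depths of 1 for ES WT, 1.18 for ES Eed KO and 1.19 for shCtrl. The control lines differ in identity as well as in treatment. Hprt, the purine salvage enzyme, had 114 FPKM in ES WT, 0.567 in shCtrl and 87.7 in ES Eed KO. All 3 ES libraries carried the defining ES transcripts at high levels, Pou5f1 with 586 FPKM in ES WT, 715 in shCtrl and 540.1 in ES Eed KO.

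Differences are of log2(FPKM + 1), and a gene is called higher or lower where the difference is at least 1 in size, a doubling or halving at high levels. Of 13138 genes with at least 1 FPKM in 1 of the 3 ES libraries, 416 (3.17%) were higher and 446 (3.39%) lower in ES Eed KO than in ES WT. Against shCtrl, 705 (5.37%) were higher and 493 (3.75%) lower. The same rule between the control libraries, shCtrl minus ES WT, called 398 (3.03%) higher and 722 (5.5%) lower. In both directions together, calls between the controls outnumbered those against ES WT and were somewhat fewer than those against shCtrl. Genes beyond both controls in the same direction were fewer: 212 (1.61%) higher and 117 (0.891%) lower. Of the 416 genes higher than ES WT, these 212 passed against shCtrl too, for 79 shCtrl was itself past the rule in the same direction, and 125 lay between. Of the 446 lower genes, the counts were 117, 195 and 134. Rescaling libraries to equal totals moved the median of all genes from -0.05 to 0.07. It moved the calls against ES WT to 546 higher and 349 lower. The shares of all expressed genes given here are those beside which counts of gene groups below are to be read.

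Small RNA genes (by RefSeq gene type, mostly microRNAs and small nucleolar RNAs) made up 265 of the expressed genes but 27 of the 212 and 35 of the 117. Such short genes have unstable FPKM in poly(A)-selected libraries, and they were kept out of the rankings. Loci without a symbol have no gene type and stayed in. The other genes beyond both controls were 185 higher and 82 lower.

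The higher genes included loci with CpG-dense and with CpG-poor upstream sequence, shown for 5 genes near the top of the ranking by difference from the nearer control. Each line gives the 250 bases before the RefSeq start (GRCm38.p6), 5′ to 3′ on the gene's strand, with every CG dinucleotide in capitals.

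Barx1: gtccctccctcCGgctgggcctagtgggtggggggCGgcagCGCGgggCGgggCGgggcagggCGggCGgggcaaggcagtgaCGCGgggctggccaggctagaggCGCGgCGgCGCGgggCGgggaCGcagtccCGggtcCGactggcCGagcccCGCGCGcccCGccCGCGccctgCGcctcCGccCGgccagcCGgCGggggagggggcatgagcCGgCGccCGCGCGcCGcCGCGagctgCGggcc

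Hoxd13: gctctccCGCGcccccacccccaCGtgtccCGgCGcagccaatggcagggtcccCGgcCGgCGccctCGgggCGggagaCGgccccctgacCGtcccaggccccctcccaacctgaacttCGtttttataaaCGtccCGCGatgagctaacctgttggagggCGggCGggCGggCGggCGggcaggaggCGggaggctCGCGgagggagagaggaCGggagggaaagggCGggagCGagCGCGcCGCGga

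Esx1: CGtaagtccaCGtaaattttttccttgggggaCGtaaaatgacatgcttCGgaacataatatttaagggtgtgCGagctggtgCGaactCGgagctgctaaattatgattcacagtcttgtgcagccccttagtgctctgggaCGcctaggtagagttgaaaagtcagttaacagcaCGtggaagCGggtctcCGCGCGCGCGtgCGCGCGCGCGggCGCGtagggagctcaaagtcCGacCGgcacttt

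Saa3: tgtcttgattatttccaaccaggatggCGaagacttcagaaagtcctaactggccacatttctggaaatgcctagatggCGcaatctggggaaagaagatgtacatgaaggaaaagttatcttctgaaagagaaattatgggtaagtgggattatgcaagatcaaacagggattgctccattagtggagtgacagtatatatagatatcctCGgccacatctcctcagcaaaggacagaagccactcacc

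Khdc3: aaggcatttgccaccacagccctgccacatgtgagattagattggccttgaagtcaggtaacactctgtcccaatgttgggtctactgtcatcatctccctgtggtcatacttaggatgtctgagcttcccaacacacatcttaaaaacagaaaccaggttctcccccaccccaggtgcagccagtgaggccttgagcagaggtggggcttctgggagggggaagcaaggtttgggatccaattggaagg

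Barx1 lies at chr13:48662786-48663035 on the forward strand and holds 40 CG dinucleotides in this window. Hoxd13, at chr2:74667975-74668224 on the forward strand, holds 31, and Esx1, at chrX:137120327-137120576 on the reverse strand, holds 24. Saa3, at chr7:46715677-46715926 on the reverse strand, holds 3, and Khdc3, at chr9:73102148-73102397 on the forward strand, holds 0. Over the 32851 promoters of the RefSeq table the median was 6 for this window, 92.1% held at least 1 CG, 5.19% held 31 or more and 7.87% held none. CG reads the same on both strands. A count for all higher genes was void, because 103 of 183 (56.3%) had exactly 1 promoter in the table, under the 80% needed. All expressed genes fell under it too, with 8090 of 12646 (64.0%). With that limit, those 8090 had a median of 21 CG over 300 bases, 50 of them after the start. Esx1 held 24 in that longer window.

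The 15 genes with the highest values relative to the nearer control mixed oocyte, germ line, placental and patterning genes with metabolic and secreted proteins. Khdc3, a component of the maternal complex of oocytes and early embryos (mm9 chromosome 9, 72950205 to 72952250), had 5.80 FPKM in ES WT, 10.2 in shCtrl and 67.3 in ES Eed KO. Its differences were 3.33 from ES WT and 2.61 from shCtrl, and ES Eed KO was the single high library. Saa3, an acute-phase apolipoprotein, had 0.606 FPKM in ES WT, 0.214 in shCtrl and 8.12 in ES Eed KO (2.51 from ES WT and 2.91 from shCtrl). A2m, a secreted protease inhibitor, had 1.46 FPKM in ES WT, 1.19 in shCtrl and 11.5 in ES Eed KO. Both controls were low for each of these genes. Cbln1, a synaptic organiser of the cerebellum, had 1.81 FPKM in ES WT, 1.02 in shCtrl and 11.3 in ES Eed KO. Dgat2, the enzyme of the last step of triglyceride synthesis, had 3.77 FPKM in ES WT, 4.18 in shCtrl and 19.3 in ES Eed KO. Atp1b2, a sodium pump subunit, had 11.9 FPKM in ES WT, 8.14 in shCtrl and 44.99 in ES Eed KO, and Nxt2, a factor of nuclear RNA export, had 2.46, 1.34 and 11.8 in the same order. For these 4 genes the controls lay within the size rule of each other, and ES Eed KO was at least 1.84 above the nearer of them.

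**Figure D1:**
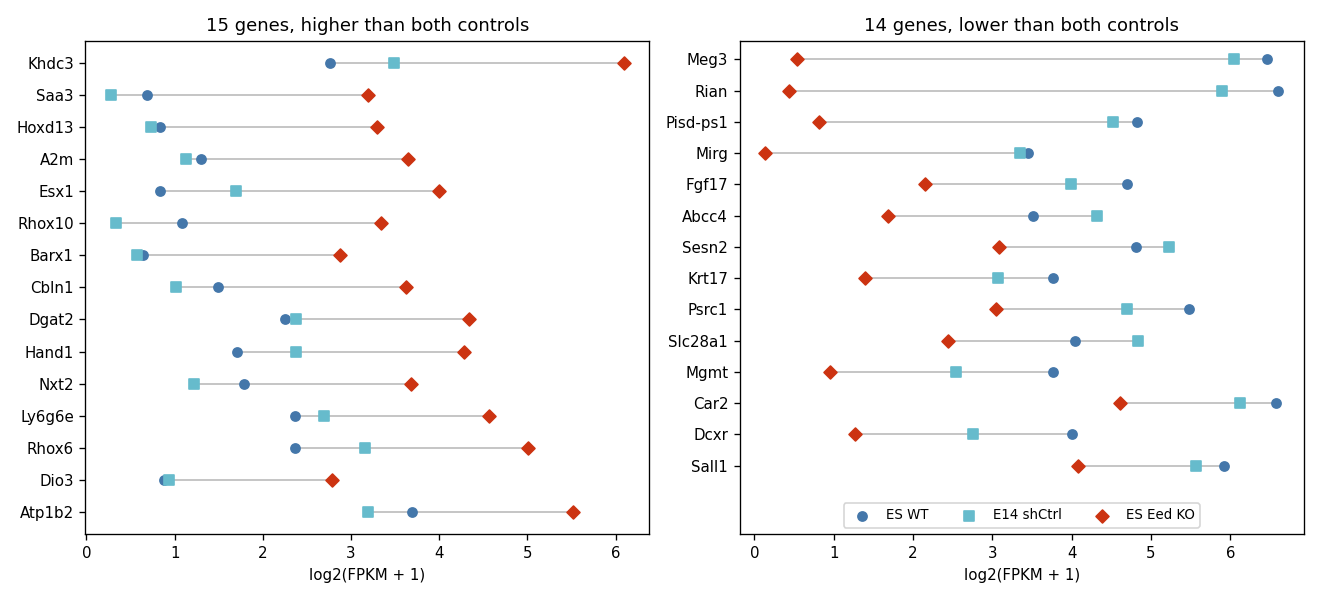
Levels as log2(FPKM + 1) of the genes with the largest differences from the nearer control, higher in ES Eed KO on the left (15 genes) and lower on the right (14 genes, leaving out 1 locus named only by an accession). Circles are ES WT, squares shCtrl and diamonds ES Eed KO, 1 library each; the diamond lies outside both controls in every row, as for Khdc3 (67.3 FPKM against 5.80 and 10.2) and Dcxr (1.41 against 15.1 and 5.76).

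HOX genes encode homeodomain factors that set position along the body axis, lie in 4 clusters and are classic PRC2 targets. Of 41 HOX and Evx genes in the table, 39 had a positive difference from ES WT and 39 from shCtrl, with medians of 0.82 and 0.72 against -0.05 and 0.06 for all expressed genes. Of the 41, 14 were called higher than ES WT, 13 higher than shCtrl and 12 higher than both, and 0 were lower in any of these. Their summed level went from 7.29 FPKM in ES WT and 10.6 in shCtrl to 57.3 in ES Eed KO. Only 19 of the 41 reached 1 FPKM, 17 of them in ES Eed KO alone, so the calls among expressed members are set by that library. Levels in ES Eed KO were still low, with Hoxd13 the highest.

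Hoxd13, the most posterior gene of its cluster (mm9 chromosome 2, 74506367 to 74509656), had 0.790 FPKM in ES WT, 0.665 in shCtrl and 8.80 in ES Eed KO. Its differences were 2.45 from ES WT and 2.56 from shCtrl. Hoxd9 and Hoxd8 beside it had 0.0960, 0.271 and 2.86 and 0.0602, 0.222 and 2.46 in the same order of libraries. These 3 formed a run of neighbouring expressed genes past the rule against both controls. Hoxa10 had 0.0223 FPKM in ES WT, 0.201 in shCtrl and 4.59 in ES Eed KO. Hoxa9, Hoxa10, Hoxa11, Hoxa11os and Hoxa13 formed a run of 5 on chromosome 6. The antisense transcript Hoxa11os cannot be told apart from Hoxa11, since the kit does not mark strand.

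Hoxc12 had 0.138 FPKM in ES WT, 0.462 in shCtrl and 2.54 in ES Eed KO, and Hoxc4 had 0.0442, 0.158 and 1.36 in the same order. Hoxc13 had 0.344, 1.49 and 2.53 and was past the rule from ES WT but not from shCtrl. Hoxb13 had 0.0604 FPKM in ES WT, 0.530 in shCtrl and 2.34 in ES Eed KO, and it was the 1 of 10 Hoxb genes beyond both controls. Hoxb1, which has a known retinoic acid response, had 0.268, 0.105 and 0.462. The 4 clusters thus contributed 5 (Hoxa), 1 (Hoxb), 3 (Hoxc) and 3 (Hoxd) genes to the 12. Chromosome 6, with the Hoxa cluster, had a positive median difference as a whole in this library, as given with the chromosomes. Dividing by each chromosome's median ratio left 9 HOX genes beyond both controls, and 2 of the 5 in the Hoxa cluster. With a pseudocount of 5, 1 HOX gene passed.

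**Figure D2:**
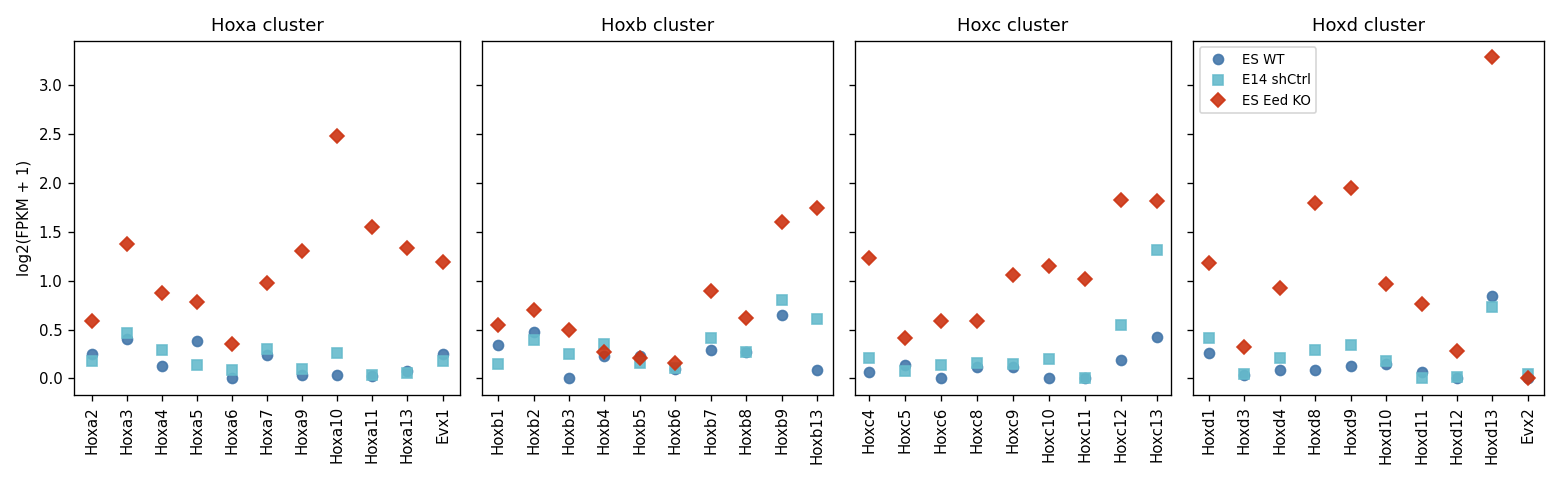
Levels as log2(FPKM + 1) of HOX and Evx genes in the 3 ES libraries, by cluster in gene order (circles ES WT, squares shCtrl, diamonds ES Eed KO, 1 library each). Diamonds lie above both controls for most genes, with Hoxd13 highest at 8.80 FPKM and Hoxb4 to Hoxb6 near the controls.

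Outside the HOX clusters, 240 developmental transcription factors were listed, and 99 reached 1 FPKM, 28 of them in ES Eed KO alone. Over all 240, differences had medians of 0.09 from ES WT and 0.18 from shCtrl. Against ES WT, 23 of the 99 were higher and 8 lower, beside 3.17% and 3.39% of all expressed genes. Against shCtrl, 17 were higher and 5 lower, beside 5.37% and 3.75%. Beyond both controls, 14 of the 99 were higher and 1 lower, beside 1.61% and 0.891% of all expressed genes. The 14 became 31 with a pseudocount of 0.1, 2 with a pseudocount of 5, 7 with a minimum of 5 FPKM and 9 without chromosomes 3, 6, 11 and Y. Barx1, a homeobox gene of stomach mesenchyme and teeth, had 0.558 FPKM in ES WT, 0.487 in shCtrl and 6.32 in ES Eed KO (2.23 from ES WT and 2.30 from shCtrl). Hand1, a factor of trophoblast giant cells and heart, had 2.26 FPKM in ES WT, 4.21 in shCtrl and 18.4 in ES Eed KO (2.57 from ES WT and 1.90 from shCtrl). Gata2, of blood progenitors and trophoblast, had 1.74 FPKM in ES WT, 1.81 in shCtrl and 7.34 in ES Eed KO. In each, both controls were close to each other and ES Eed KO stood alone.

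En2, of the midbrain and hindbrain boundary, had 2.40 FPKM in ES WT, 1.47 in shCtrl and 9.27 in ES Eed KO. Nkx2-5, the cardiac homeobox gene, had 0.650 FPKM in ES WT, 0.507 in shCtrl and 3.36 in ES Eed KO. Tbx15, of limb and skin mesenchyme, had 0.219, 0.396 and 2.55 in the same order, and Tbx1, of the pharyngeal arches, had 0.160, 0.227 and 1.66. The neurogenic factors Neurog1 and Neurog3 had 0.427, 0.142 and 2.33 and 1.96, 1.22 and 5.72. Other higher members were Eomes, Bhlhe23, Emx1 and Tfap2c. Gli1, the hedgehog-responsive zinc finger factor, was the lower member, with 20.3 FPKM in ES WT, 19.05 in shCtrl and 7.11 in ES Eed KO.

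By family, 3 of 14 T-box genes and 4 of 32 proneural and mesodermal bHLH genes in the table were higher than both controls, and 0 of 19 Sox genes. Of the expressed members, 2 of 6 T-box and 4 of 11 bHLH genes reached 1 FPKM in ES Eed KO alone, and 0 of 11 Sox genes did. The families were not compared by a test. Several factors passed against ES WT but had shCtrl at a like level. Tbx3 had 3.16 FPKM in ES WT, 12.3 in shCtrl and 13.2 in ES Eed KO, and Gata4, of endoderm and heart, had 0.571 FPKM in ES WT, 1.88 in shCtrl and 2.65 in ES Eed KO. Gata6 was highest in shCtrl, with 0.287 FPKM in ES WT, 3.22 in shCtrl and 1.51 in ES Eed KO. Nkx2-9 showed the converse, with 8.26 FPKM in ES WT, 0.979 in shCtrl and 1.88 in ES Eed KO, so the ES WT library alone was high.

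Trophoblast genes are silenced early in the embryonic lineage. Of 25 expressed list members, 6 were higher than both controls and 1 lower, beside 1.61% and 0.891% of all expressed genes. Of the 25, 2 reached 1 FPKM in ES Eed KO alone. Gata2, Hand1, Eomes and Tfap2c were shared with the factors above. Esx1, an X-linked homeobox gene of placenta and testis (mm9 chromosome X, 133649936 to 133654865), had 0.782 FPKM in ES WT, 2.23 in shCtrl and 15.00 in ES Eed KO (3.17 from ES WT and 2.31 from shCtrl). Rhox6 had 4.14 FPKM in ES WT, 7.93 in shCtrl and 31.3 in ES Eed KO. Cited2, a transcriptional co-regulator, was lower, with 49.9 FPKM in ES WT, 38.7 in shCtrl and 18.8 in ES Eed KO. Cdx2, which specifies trophectoderm, had 1.16 FPKM in ES WT, 0.814 in shCtrl and 1.53 in ES Eed KO, within the rule of both controls. The keratins Krt8 and Krt19 lay between the controls. Krt8 had 113 FPKM in ES WT, 27.2 in shCtrl and 53.99 in ES Eed KO, and Krt19 had 62.3, 4.53 and 15.6 in the same order.

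Rhox genes form an X-linked homeobox cluster active in placenta and germ cells. Of 26 members in the table, 6 reached 1 FPKM and 3 were higher than both controls, beside 1.61% of all expressed genes. Against shCtrl, 1 of the 6 was lower, beside 3.75%. Rhox10 had 1.13 FPKM in ES WT, 0.265 in shCtrl and 9.11 in ES Eed KO (2.25 from ES WT), and Rhox9 had 3.91 FPKM in ES WT, 7.55 in shCtrl and 23.4 in ES Eed KO. Rhox13 had 1.73, 2.83 and 4.998 in the same order and passed against ES WT only. Elsewhere on the X chromosome, Xlr4a, Xlr3a, Xlr5a and Xlr5b, multicopy genes of meiotic chromatin proteins, formed a run beyond both controls. Xlr3a had 3.58 FPKM in ES WT, 0.756 in shCtrl and 8.18 in ES Eed KO and Xlr4a 0.621, 0.370 and 3.12 in the same order. Near-identical Xlr and Rhox copies can share reads, so the split between copies is uncertain. Chromosome X held 22 of the 212 genes (10.4%) and 3.69% of the expressed genes.

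Oocyte and germ line genes were higher in part. Of 10 expressed oocyte and preimplantation genes, 3 were higher than both controls and 0 lower: Khdc3, Nlrp4f (0.852, 1.64 and 5.60 FPKM in ES WT, shCtrl and ES Eed KO) and the homeobox gene Crxos (1.31, 3.47 and 12.8). Of 37 expressed germ line and meiosis genes, 3 were higher than both controls, while 7 were higher than ES WT. The shares of all expressed genes were 1.61% and 3.17%. Tex15, needed for meiotic repair and transposon silencing, had 1.36 FPKM in ES WT, 0.747 in shCtrl and 7.04 in ES Eed KO. Tex11, an X-linked meiotic crossover gene, had 1.46 FPKM in ES WT, 1.86 in shCtrl and 7.32 in ES Eed KO. Sohlh2, a germ cell bHLH factor, had 4.75, 3.82 and 11.8 in the same order. It lies on chromosome 3, whose genes had median differences of 0.34 from ES WT and 0.37 from shCtrl. Stag3, the meiotic cohesin subunit, was high in both shCtrl and ES Eed KO, with 6.51 FPKM in ES WT, 25.6 in shCtrl and 21.01 in ES Eed KO. Dazl and Ddx4, defining germ cell markers, had 2.28, 2.79 and 5.35 and 6.47, 7.03 and 6.76.

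Primitive endoderm genes split between the libraries. Of 21 expressed members, 2 were higher than both controls, Col4a1, a basement membrane collagen, with 16.7 FPKM in ES WT, 16.6 in shCtrl and 46.5 in ES Eed KO, and Rbp4, the retinol carrier, with 1.18 FPKM in ES WT, 1.45 in shCtrl and 5.28 in ES Eed KO. Against shCtrl 5 were lower, among them Apoe with 119 FPKM in ES WT, 454 in shCtrl and 63.6 in ES Eed KO and Cubn with 0.256 FPKM in ES WT, 3.98 in shCtrl and 0.148 in ES Eed KO. Of 18 expressed cardiac and vascular genes, 4 were higher than both controls, beside 1.61% of all expressed genes. Against ES WT, 4 were higher and 3 (Tek, Sox18 and Actc1) lower, beside 3.17% and 3.39%. Against shCtrl, 5 were higher and 0 lower, beside 5.37% and 3.75%. Of the 18, 4 reached 1 FPKM in ES Eed KO alone, Nkx2-5 and Myl3 among them, and entered the count through that library. Myl7, an atrial myosin light chain, had 5.13 FPKM in ES WT, 5.44 in shCtrl and 19.3 in ES Eed KO, and Myl3 had 0.665, 0.171 and 2.43 in the same order. Myh6, a cardiac myosin heavy chain, had 2.44, 0.392 and 0.997 and Actc1, cardiac actin, 3.51, 0.204 and 1.03, so both were highest in ES WT.

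Markers of other cells were checked for RNA of cells other than ES cells. Of 46 expressed members of the fibroblast, epithelial and blood lists, 5 were higher than both controls and 0 lower. The shares of all expressed genes were 1.61% and 0.891%. Of the 46, 6 reached 1 FPKM in ES Eed KO alone. Over all 68 list genes in the table, the summed level was 1529.8 FPKM in ES WT, 675 in shCtrl and 1190.0 in ES Eed KO. Col1a1, the defining fibroblast collagen, had 19.7 FPKM in ES WT, 4.23 in shCtrl and 4.45 in ES Eed KO, and Col1a2 had 7.37, 0.559 and 0.929 in the same order. Thy1, a fibroblast and neuron surface protein, had 2.47 FPKM in ES WT, 3.66 in shCtrl and 8.64 in ES Eed KO. Of 15 blood markers in the table, 2 reached 1 FPKM, both in ES Eed KO alone. Itgam, an integrin of macrophages and granulocytes, had 0.0000170 FPKM in ES WT, 0.00639 in shCtrl and 1.47 in ES Eed KO and was higher than both controls, and Gata1, of red cells and megakaryocytes, had 0.660, 0.977 and 1.94. Ptprc, the pan-leukocyte CD45, had 0.0425, 0 and 0.0632. In bulk RNA, fewer cells of a type and less RNA per cell cannot be told apart. The part of such cells in the differences above was not tested.

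**Figure D3:**
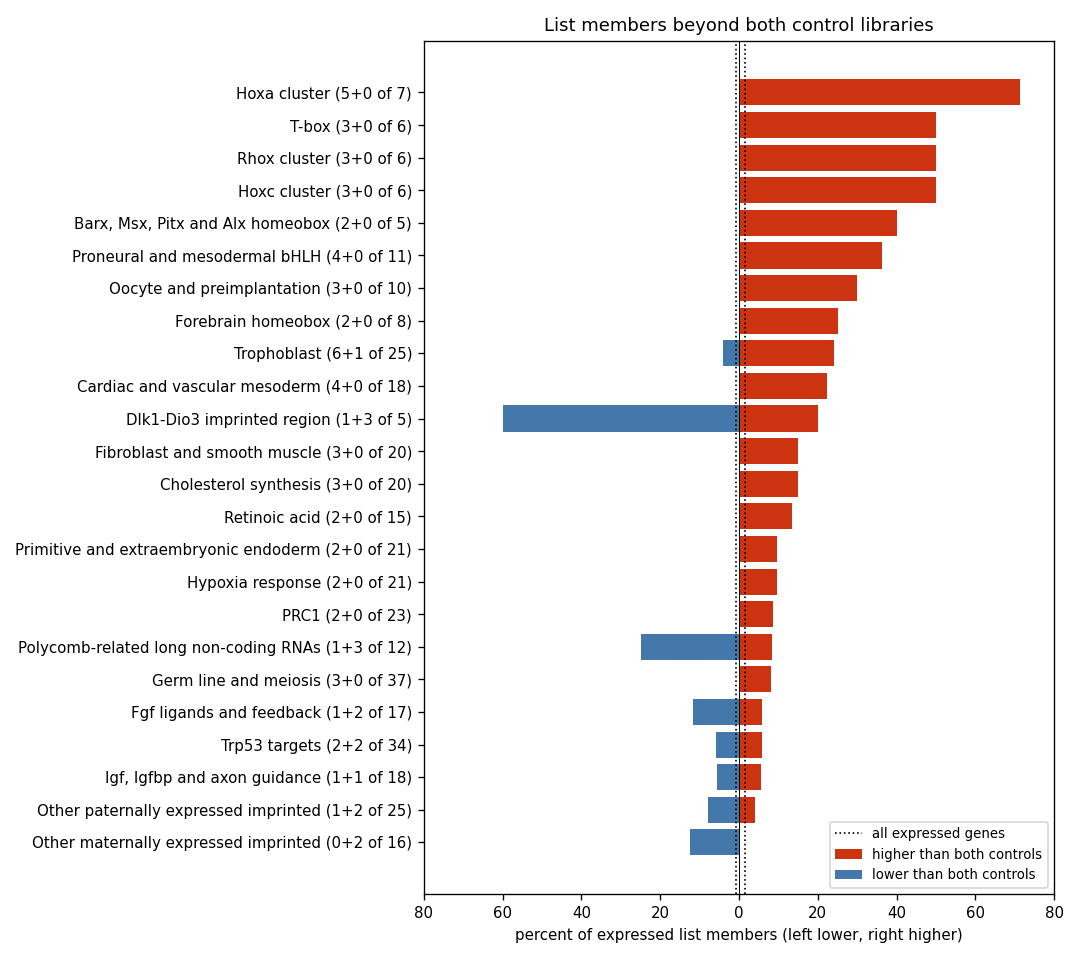
Share of expressed members beyond both control libraries, for lists with at least 5 expressed members and at least 2 calls: bars to the right are percent higher, bars to the left percent lower, with counts (higher plus lower of expressed) after each name. Dotted lines mark all expressed genes, 1.61% higher and 0.891% lower. In ES Eed KO alone, 6 of the 7 expressed Hoxa and 5 of the 6 expressed Hoxc genes reached 1 FPKM. That library therefore sets the length of those bars. For the cardiac and vascular list, 4 of 18 reached 1 FPKM in ES Eed KO alone.

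Of 110 expressed signalling genes, 5 were higher than both controls and 3 lower, beside 1.61% and 0.891% of all expressed genes. Centring each chromosome or each 20 Mb bin on its median left 1 of the 3 lower. Lefty2, a Nodal antagonist, had 69.2 FPKM in ES WT, 14.2 in shCtrl and 184 in ES Eed KO (1.40 from ES WT and 3.61 from shCtrl), while its neighbour Lefty1 had 113, 40.7 and 96.3 in the same order. Fgf10, a ligand of limb and lung buds, had 0.399 FPKM in ES WT, 0.496 in shCtrl and 2.15 in ES Eed KO. Fgf17 was lower, with 25.03 FPKM in ES WT, 14.9 in shCtrl and 3.46 in ES Eed KO (-2.55 from ES WT and -1.84 from shCtrl), and Spry2, a feedback inhibitor of FGF signalling, had 36.97 FPKM in ES WT, 37.8 in shCtrl and 17.7 in ES Eed KO. Wnt3, a ligand of primitive streak formation, was high in ES WT alone, with 2.09 FPKM in ES WT, 0.151 in shCtrl and 0.214 in ES Eed KO. Sfrp1, a Wnt antagonist, was low in ES WT alone, with 6.19 FPKM in ES WT, 20.5 in shCtrl and 23.2 in ES Eed KO.

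Cdkn2a, the Ink4a and Arf locus and a known Polycomb target, had 14.4 FPKM in ES WT, 15.97 in shCtrl and 42.8 in ES Eed KO (1.51 from ES WT and 1.37 from shCtrl). It was the 1 of 6 expressed cyclin-dependent kinase inhibitors beyond both controls. Cdkn1a, the p21 gene, had 19.05 FPKM in ES WT, 5.90 in shCtrl and 6.66 in ES Eed KO and was high in ES WT alone. Of 29 expressed cyclins and cell cycle genes, 0 passed the rule against ES WT in either direction, and against shCtrl Ccnd2 was higher and Ccnd3 lower. Ccnd2 had 9.49 FPKM in ES WT, 2.23 in shCtrl and 10.5 in ES Eed KO, and Ccnd3 had 69.01, 155 and 70.1 in the same order.

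Genes of the Polycomb machinery other than Eed were mostly within the rule. Of 38 expressed PRC1 and PRC2 genes, 2 were higher than both controls and 0 lower, beside 1.61% and 0.891% of all expressed genes. Against shCtrl, 6 were higher and 1 lower, beside 5.37% and 3.75%. Of the 38, 2 reached 1 FPKM in ES Eed KO alone, Cbx8 among them. Bmi1, a Pcgf subunit of canonical PRC1, had 2.53 FPKM in ES WT, 3.76 in shCtrl and 10.6 in ES Eed KO (1.71 from ES WT and 1.28 from shCtrl). Cbx8, a chromodomain reader of the PRC2 mark, had 0.749 FPKM in ES WT, 0.370 in shCtrl and 2.84 in ES Eed KO. Phc1, a polyhomeotic subunit of canonical PRC1, had 88.7 FPKM in ES WT, 66.6 in shCtrl and 48.4 in ES Eed KO. Of 34 expressed genes for other histone and DNA modifying enzymes, demethylases and acetyltransferases included, 0 were beyond both controls. Dnmt3l, the cofactor of the de novo methyltransferases, had 155 FPKM in ES WT, 222 in shCtrl and 367 in ES Eed KO, and Dnmt3a had 17.2 FPKM in ES WT, 11.01 in shCtrl and 34.5 in ES Eed KO.

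Core pluripotency transcripts lay near both controls. Of 16 members, 0 passed the rule in either direction against either control. Nanog had 146 FPKM in ES WT, 241 in shCtrl and 256 in ES Eed KO, so ES WT was the lower control, and Sox2 had 177, 185 and 186 in the same order. Zfp42, a marker of undifferentiated cells, had 372, 418 and 378. Naive-state genes depended on the control: 6 were higher and 1 lower than ES WT of 20, but 1 higher and 3 lower than shCtrl. Esrrb had 46.3 FPKM in ES WT, 142 in shCtrl and 108 in ES Eed KO, and Tcl1 had 21.3, 81.9 and 57.1 in the same order. Dppa3, a germ line and preimplantation gene also called Stella, was the 1 beyond both controls, with 36.6 FPKM in ES WT, 16.5 in shCtrl and 90.6 in ES Eed KO. Like Nanog, it lies on chromosome 6, whose genes from 20 Mb onward had median differences of 0.52 from ES WT and 0.53 from shCtrl. Primed epiblast genes turned the other way, with 1 higher and 4 lower than ES WT of 16, 5 higher and 0 lower than shCtrl, and 0 beyond both. Otx2 had 20.7 FPKM in ES WT, 6.60 in shCtrl and 33.5 in ES Eed KO, and Pou3f1 had 23.5 FPKM in ES WT, 3.87 in shCtrl and 8.03 in ES Eed KO.

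Imprinted genes held the largest decreases. In the Dlk1-Dio3 region of chromosome 12, the maternally expressed RNAs Meg3, Rian and Mirg were low in ES Eed KO alone, and with 6430411K18Rik they formed a run of 4 neighbouring loci lower than both controls. Meg3 (mm9 chromosome 12, 110779206 to 110809939) had 87.2 FPKM in ES WT, 64.9 in shCtrl and 0.447 in ES Eed KO (-5.93 from ES WT and -5.51 from shCtrl). Rian had 96.2 FPKM in ES WT, 58.4 in shCtrl and 0.351 in ES Eed KO, and Mirg had 9.90, 9.15 and 0.102 in the same order. Dio3, a thyroid hormone deiodinase expressed from the paternal allele of the region, was higher, with 0.841 FPKM in ES WT, 0.918 in shCtrl and 5.88 in ES Eed KO (1.90 from ES WT and 1.84 from shCtrl). Dlk1, the other end of the region and also paternal, had 1.41, 1.43 and 1.44. Low maternal RNAs and a higher Dio3 thus appeared in the same library, with Dlk1 near both controls. The table does not separate alleles.

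Of 45 expressed imprinted genes, 2 were higher and 6 lower than both controls, beside 1.61% and 0.891% of all expressed genes. Igf2, the paternally expressed growth factor, had 10.8 FPKM in ES WT, 9.41 in shCtrl and 25.9 in ES Eed KO. Impact had 74.4 FPKM in ES WT, 101 in shCtrl and 29.7 in ES Eed KO, Nnat, which encodes neuronatin, 30.4 FPKM in ES WT, 3.12 in shCtrl and 0.771 in ES Eed KO, and Slc22a18 1.20 FPKM in ES WT, 1.91 in shCtrl and 0.0206 in ES Eed KO. Nnat was also low in shCtrl beside ES WT. Peg10 had 152, 92.2 and 88.4 in ES WT, shCtrl and ES Eed KO, Mest 101, 62.5 and 56.2, and Cdkn1c 23.7, 31.8 and 26.7. Grb10 was low in shCtrl alone, with 32.3 FPKM in ES WT, 6.53 in shCtrl and 27.6 in ES Eed KO.

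Further genes lower than both controls had varied roles. Sesn2, a stress-induced regulator of mTORC1, had 27.1 FPKM in ES WT, 36.3 in shCtrl and 7.51 in ES Eed KO (-1.72 from ES WT and -2.13 from shCtrl). Car2, a carbonic anhydrase, had 94.3 FPKM in ES WT, 68.5 in shCtrl and 23.3 in ES Eed KO. Psrc1, a spindle protein, had 43.4 FPKM in ES WT, 24.9 in shCtrl and 7.26 in ES Eed KO. These were strongly expressed in both controls. Mgmt, which repairs alkylated guanine, had 12.5 FPKM in ES WT, 4.83 in shCtrl and 0.940 in ES Eed KO, and Krt17 had 12.6, 7.40 and 1.63 in the same order. Slc28a1, a nucleoside transporter, had 15.4 FPKM in ES WT, 27.5 in shCtrl and 4.42 in ES Eed KO. Pisd-ps1 had 27.2 FPKM in ES WT, 22.05 in shCtrl and 0.766 in ES Eed KO, and as a pseudogene it may share reads with its near-identical copies.

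Several gene groups differed in direction or count between the 2 controls, and the controls stood apart from each other for these genes. Of 34 expressed Trp53 targets, Trp53 included, 13 were lower and 2 higher than ES WT, beside 3.39% and 3.17% of all expressed genes. Against shCtrl 4 were lower and 3 higher, and beyond both controls 2 were lower (Bbc3 and Sesn2) and 2 higher (Pmaip1 and Sesn1). Trp53 had 239 FPKM in ES WT, 63.7 in shCtrl and 65.5 in ES Eed KO, and Ccng1, a target, 104 FPKM in ES WT, 14.04 in shCtrl and 7.50 in ES Eed KO. Perp, an apoptosis effector, had 39.9 FPKM in ES WT, 6.36 in shCtrl and 5.90 in ES Eed KO. ES WT was the high library for each, and shCtrl and ES Eed KO lay within the rule of each other. Pmaip1, the pro-apoptotic Noxa, had 4.70 FPKM in ES WT, 3.69 in shCtrl and 14.9 in ES Eed KO, and Sesn1 had 1.57, 1.18 and 5.19 in the same order. Dividing by chromosome medians left 14 targets lower than ES WT, with chromosome 11 holding Trp53 and Ccng1.

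Interferon-inducible GTPases and antigen presentation genes differed between the controls. Among all expressed genes, 3.39% were lower than ES WT and 5.37% higher than shCtrl. Of 10 expressed GTPase genes, 5 were lower than ES WT, 3 higher than shCtrl and 0 beyond both. Gbp2 had 29.4 FPKM in ES WT, 0.791 in shCtrl and 4.40 in ES Eed KO, and Irgm1 had 16.2 FPKM in ES WT, 1.41 in shCtrl and 10.6 in ES Eed KO. Of 14 class I presentation genes, 5 were lower than ES WT, 2 higher than shCtrl and 0 beyond both. Psmb8, an immunoproteasome subunit, had 8.70 FPKM in ES WT, 0.624 in shCtrl and 1.38 in ES Eed KO. For Gbp2, Irgm1 and Psmb8, ES Eed KO lay between the controls. Ifitm3, an interferon-induced membrane protein with a known role in germ cells, was lower than both, with 139 FPKM in ES WT, 131 in shCtrl and 48.3 in ES Eed KO.

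Epithelial genes had 9 of 24 members higher than shCtrl and 1 higher and 3 lower than ES WT. Among all expressed genes, 5.37% were higher and 3.75% lower than shCtrl, and 3.17% higher and 3.39% lower than ES WT. Cdh1, E-cadherin, had 197 FPKM in ES WT, 73.97 in shCtrl and 205 in ES Eed KO, so shCtrl alone was low. Fibroblast and smooth muscle genes had 11 of 20 higher than shCtrl, but 4 higher and 7 lower than ES WT. Genes of the transient 2-cell-like state were high in shCtrl, with 16 of 19 lower in ES Eed KO than in shCtrl, against 1 lower than ES WT. Zscan4c had 19.02 FPKM in ES WT, 42.05 in shCtrl and 11.9 in ES Eed KO, and the Zscan4 and Usp17l copies are near-identical, so reads between them may be split. Stress response genes under Atf4 were likewise high in shCtrl, with 8 of 18 lower than shCtrl and 1 (Sesn2) lower than ES WT. Trib3 had 8.06 FPKM in ES WT, 26.4 in shCtrl and 5.77 in ES Eed KO.

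**Figure D4:**
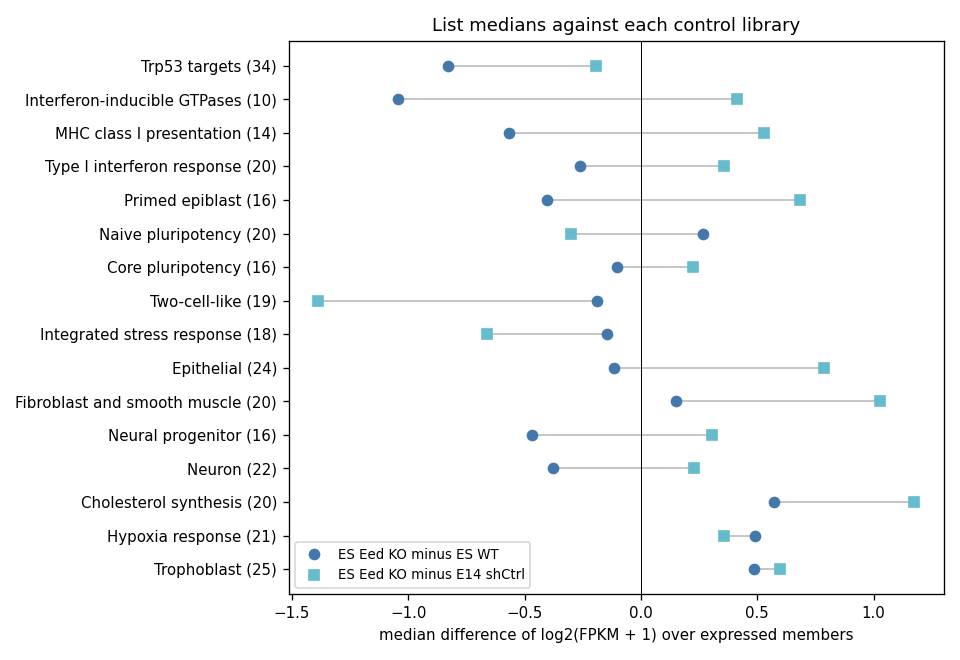
Median difference of log2(FPKM + 1) over the expressed members of 16 lists (number in brackets), as ES Eed KO minus ES WT (circles) and minus shCtrl (squares). Medians of the interferon GTPase, primed epiblast and epithelial lists, among others, have opposite signs against the 2 controls. The Trp53 (-0.83 and -0.19) and 2-cell-like (-0.19 and -1.39) medians are negative against both and differ in size. Cholesterol synthesis (0.57 and 1.17), hypoxia, trophoblast and fibroblast (0.15 and 1.03) lists are positive against both.

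Metabolic genes included 1 list that was positive throughout. All 20 cholesterol synthesis genes of the table had a positive difference from each control, with medians of 0.57 from ES WT and 1.17 from shCtrl. By the size rule 3 were beyond both controls and 12 higher than shCtrl, beside 1.61% and 5.37% of all expressed genes. Msmo1, a sterol demethylation enzyme, had 27.8 FPKM in ES WT, 20.1 in shCtrl and 67.1 in ES Eed KO. Fdps, which makes farnesyl diphosphate, had 77.9 FPKM in ES WT, 55.6 in shCtrl and 182 in ES Eed KO. It lies on chromosome 3, whose genes had median differences of 0.34 from ES WT and 0.37 from shCtrl. Ak4, a mitochondrial adenylate kinase, had 14.03 FPKM in ES WT, 22.01 in shCtrl and 76.1 in ES Eed KO (2.36 from ES WT and 1.75 from shCtrl). It and Ankrd37 were the 2 of 21 hypoxia response genes beyond both controls, while Vegfa had 3.80, 6.80 and 3.02. Ldhb, a lactate dehydrogenase subunit, had 66.97 FPKM in ES WT, 103 in shCtrl and 226 in ES Eed KO. It lies on chromosome 6, whose genes from 20 Mb onward had median differences of 0.52 from ES WT and 0.53 from shCtrl. Over all metabolic lists, 6 genes were higher than both controls. That count was 4 with each chromosome centred on its median, and 4 without chromosomes 3, 6, 11 and Y. Cytosolic ribosomal protein genes had 75 members with medians of -0.16 and -0.32, and 1 of them, Rps27, was past the rule, being listed at 0 in ES Eed KO and shCtrl.

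Differences also followed chromosomes. Genes with at least 5 FPKM were used, without small RNAs. On chromosome 6 from 20 Mb onward, 381 genes had a median difference of 0.52 from ES WT and 0.53 from shCtrl, and 344 and 341 of them were above 0. The 21 genes before 20 Mb had medians of 0.06 and 0.07. Chromosome 3 had medians of 0.34 and 0.37 over 431 genes. These shifts were present against both controls, and shCtrl minus ES WT was -0.02 and -0.06 there. EB Eed KO minus EB WT had a median of 0.31 for the chromosome 6 stretch, against -0.20 over all genes. On chromosome 3 the ES shift was alike before and from 80 Mb (0.32 and 0.35 from ES WT), while the EB medians were -0.06 over 122 genes and 0.53 over 309.

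The converse was seen at the distal end of chromosome 14. From 95 Mb, all 31 genes were below ES WT and 29 below shCtrl, with medians of -0.85 and -0.80. In EBs 28 of the 31 were below EB WT, with a median of -0.91. Ipo5, a nuclear import receptor (mm9 chromosome 14, 121310416 to 121347266), had 210.0 FPKM in ES WT, 188 in shCtrl and 75.9 in ES Eed KO. Abcc4, an exporter of cyclic nucleotides, had 10.4 FPKM in ES WT, 18.99 in shCtrl and 2.21 in ES Eed KO, and Klf12 2.28, 4.33 and 0.427 in the same order. Spry2, described above, lies in this stretch, as does Mir17hg, the microRNA cluster host, with 19.8, 19.4 and 10.4. The 279 genes before 80 Mb had a median of -0.09 from ES WT. Genotype and line history cannot be told apart with 1 library per genotype.

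Other shifts belonged to a control library. On chromosome 11, 786 genes had a median of -0.56 from ES WT but -0.02 from shCtrl, while shCtrl minus ES WT was -0.55. On chromosome 8 the median was -0.08 from ES WT and 0.37 from shCtrl. The 92 genes at 50 to 65 Mb of chromosome 14 had -0.16 and 0.85. In the 113 other bins of 20 Mb, medians from ES WT lay between -0.24 and 0.09. Chromosome 6 from 20 Mb held 31 of the 212 genes higher than both controls (14.6%) with 4.34% of the expressed genes, and distal chromosome 14 held 9 of the 117 lower genes (7.69%) with 0.396%. Leaving out chromosome 3 and these stretches left 169 higher and 104 lower. The Y-linked Ddx3y had 10.2 FPKM in ES WT, 14.8 in shCtrl and 4.52 in ES Eed KO, and Eif2s3y had 36.9, 35.1 and 20.4 in the same order.

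**Figure D5:**
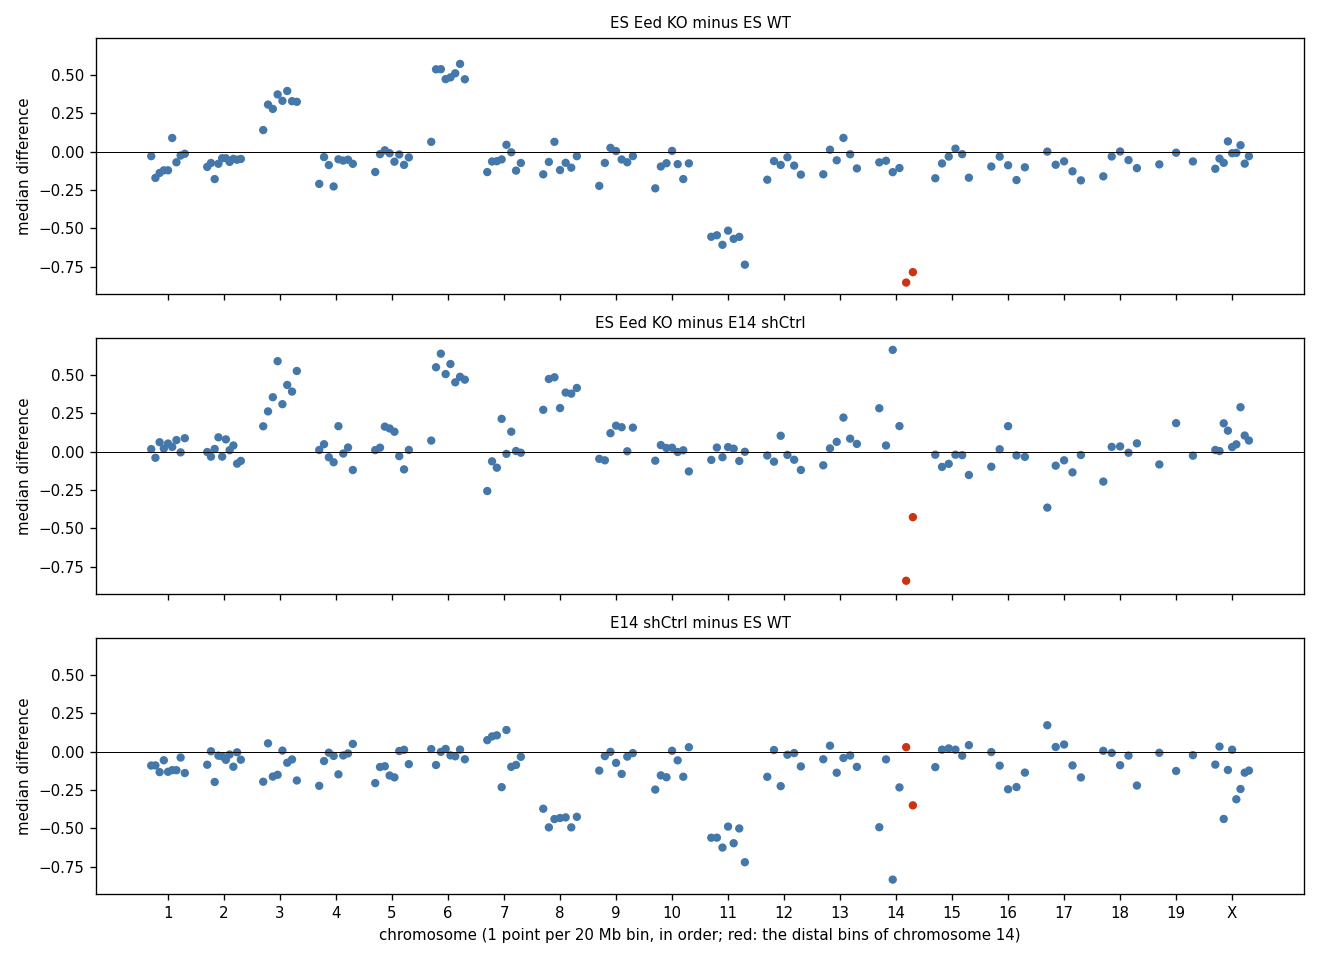
Median difference of log2(FPKM + 1) per 20 Mb bin, 1 point per bin in chromosome order, for ES Eed KO minus ES WT (top), ES Eed KO minus shCtrl (middle) and shCtrl minus ES WT (bottom). Chromosomes 3 and 6 and the distal bins of chromosome 14 (red) shift in the upper panels, chromosome 11 shifts where ES WT is the reference, and chromosome 8 where shCtrl is involved.

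Calls were also counted by level, among genes with at least 1 FPKM in shCtrl, which pass the expression filter by that library alone. Of the 3850 genes between 1 and 5 FPKM in shCtrl, 3.32% were higher and 2.91% lower than ES WT. Between 20 and 100 FPKM the shares were 1.88% and 2.16%, and above 100 FPKM 2.62% and 3.40%. The interquartile range of differences was 0.55 in the first of these classes and 0.41 in the last. Medians lay within 0.08 of 0 in each class from 1 FPKM.

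The same genotype contrast in EBs gives a check in other libraries, with EB WT as its own control. There 808 of the 13138 genes (6.15%) were higher and 1048 (7.98%) lower. Leaving out small RNAs, 61 of the 185 genes higher than both controls in ES cells (33.0%) were also higher in EBs, against 5.93% of all expressed genes, and 18 (9.73%) were lower. The 61 were 7.98% of the genes higher in EBs. Of the 82 lower genes, 30 (36.6%) were also lower in EBs, against 7.63% of all, and 9 (10.98%) were higher. The 30 were 3.05% of the 982 genes lower in EBs, counted in the same way. ES cells and EBs of a genotype come from the same line.

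Hoxd13 had 0.435 FPKM in EB WT and 57.3 in EB Eed KO, Barx1 0.759 FPKM in EB WT and 42.6 in EB Eed KO and Hand1 0.782 FPKM in EB WT and 51.2 in EB Eed KO. All 3 were higher in EB Eed KO than in ES Eed KO. Hoxa10 had 0.688 FPKM in EB WT and 34.8 in EB Eed KO, while Hoxc4, higher in ES Eed KO, had 44.4 FPKM in EB WT and 2.44 in EB Eed KO. Meg3 had 244 FPKM in EB WT and 0.801 in EB Eed KO, Rian 191 FPKM in EB WT and 4.02 in EB Eed KO and Dio3 0.820 FPKM in EB WT and 4.66 in EB Eed KO, the same directions as in ES cells. Dlk1, near both controls in ES cells, had 58.9 FPKM in EB WT and 563 in EB Eed KO, a difference of 3.24. Khdc3, the highest-ranked gene in ES cells, had 0.388 FPKM in EB WT and 0.0299 in EB Eed KO. Rhox6 had 6.06 FPKM in EB WT and 0.405 in EB Eed KO and Lefty2 4.23 FPKM in EB WT and 0.122 in EB Eed KO, the direction opposite to that in ES cells.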

How the data were processed

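Trizol-extracted RNA was sequenced after library preparation with a TruSeq poly(A) kit that does not mark strand, per the labels' protocols. Reads were aligned with TopHat and quantified with Cuffdiff on mm9 by the authors, per the submitters' processing notes, with versions, annotation release and scaling not given in the sources used here. The deposited values are FPKM per RefSeq transcript, so reads were divided between isoforms, and overlapping loci were bundled.

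A symbol of the RefSeq GRCm38.p6 table was matched to 29300 transcripts, and 551 kept their accession. The transcript with the highest mean over 5 libraries stood for each of 23421 genes, and the sixth library was not used. The size rule, a difference of at least 1 with a pseudocount of 1, was applied to genes with at least 1 FPKM in 1 of 3 ES libraries. The members, 70 gene lists and settings were chosen with earlier results of these data known. Named genes are Polycomb and pluripotency genes, the 15 largest differences each way (at least 5 FPKM in the higher library), up to 6 per list with the largest change, and neighbouring runs. Hprt, Ddx4, Dazl, Cdx2 and other markers named for their role, and the choice of which to print, came after values were seen. Some genes that the rule names are not reported here. Stretches of chromosomes 6 and 14 were chosen after values were seen. Small RNA genes were set apart by RefSeq gene type. Relative depth came from transcripts spanning over 2000 bases with FPKM under 0.2. The functions were tested on simulated data. Python 3.11.15, pandas 2.3.3, NumPy 2.4.6 and matplotlib 3.10.9 were used.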

Additional observations from a re-analysis of the deposited data

Results flagged for a closer look

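Several genes beyond both controls in ES cells passed the size rule in the opposite direction in EBs, and the difference between the ES and EB contrasts was not tested. Among those higher in ES Eed KO, EB Eed KO minus EB WT was -3.72 for Hoxc4, -2.72 for Neurog1, -2.33 for Rhox6, -2.27 for Dppa3, -2.23 for Cbln1, -2.22 for Lefty2 and -1.86 for Rhox9. Gli1, lower in ES Eed KO, was at 1.88 in EBs.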

How the results depend on the processing

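The 4 counts of genes (higher and lower than ES WT, higher and lower than both controls) moved with the pseudocount: with 0.1 they were 758, 785, 425 and 248, and with 5 they were 129, 179, 67 and 50. Requiring 5 FPKM in 1 ES library gave 270 higher than ES WT and 130 higher than both. Taking every transcript on its own gave 632 higher than ES WT and 184 lower than both. With shCtrl as the control, 705 were higher. In the other 49 cases, including rescaling, chromosome centring, summed transcripts and leaving out small RNAs or chromosomes, the 4 counts stayed within 1.5 times. Counts over gene groups moved by more than 1.5 times in 182 cases and stayed within it in 964. With a pseudocount of 5, the number of members beyond both controls in the higher direction fell from 12 to 1 for HOX genes, from 5 to 1 for signalling genes, from 11 to 5 for lineage genes and from 5 to 0 for markers of other cells. With shCtrl in place of ES WT, 15 named genes past the rule changed sign: Gbp2 (1.59), Krt19 (1.58), Krt8 (0.96), Pou3f1 (0.89), Actc1 (0.76), Psmb8 (0.55), Nkx2-9 (0.54), Col1a2 (0.31), Cdkn1a (0.15), Wnt3 (0.076), Col1a1 (0.060), Trp53 (0.039), Stag3 (-0.27), Esrrb (-0.39) and Tcl1 (-0.51). The cause was not tested. Centring on 20 Mb bins, dividing by chromosome ratios and leaving out small RNAs or the shifted stretches were added after seeing the data. No paired analysis was possible because each group is 1 library. Fragment totals are unknown, so no counting interval is given.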
